A study of Mus musculus with 9 samples.

Results

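Dopamine, serotonin and histamine are small amines that hypothalamic neurons use to set hormone release, arousal and feeding, and 9 genes of their synthesis, packaging, uptake, breakdown and reception were followed in the hypothalamus of weanling mice. The genes were taken by name from a table of 54532 gene models: Th, Ddc and Hdc (synthesis), Slc18a2 and Slc6a3 (transport), Maoa and Maob (breakdown), and the receptors Drd2 and Htr2c. All 9 were found once each, and all 9 passed the filter on low counts that left 17546 genes in the test.

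The animals were male wild type mice of the outbred ICR stock, and the tissue was collected on postnatal day 21. Dams of LP pups ate a low-fat diet in which fat gave 10% of energy, and the pups received PBS, the vehicle. Dams of HP pups ate a high-fat diet with sucrose (HFHS) in which fat gave 45% of energy, and the pups received PBS. Dams of HA pups ate the same HFHS diet, and the pups received 4-PBA (4-phenylbutyric acid), a small molecule used as a chemical chaperone. Pups of all 3 groups were injected daily on postnatal days 4 to 16. Dams were 5 weeks old when their diet began, ate it for 5 weeks before mating and remained on it until weaning, and litters were set at 10 pups. Each group has 3 libraries, named here replicates 1 to 3. Whether pups of a group came from different litters is not stated. The p-values cover only the spread between libraries within groups, part of which may be technical. In the main fit that spread was pooled over all 9 libraries. A code in the library titles, of unstated meaning, differs between the diets. Against LP, the code cannot be told apart from the diet.

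Dopamine is made from tyrosine in neurons that hold tyrosine hydroxylase (Th) and aromatic L-amino acid decarboxylase (Ddc), is loaded into vesicles by the vesicular monoamine transporter (Slc18a2), and is taken back up by the dopamine transporter (Slc6a3). In the hypothalamus the best known dopamine neurons are those of the arcuate nucleus that hold down prolactin release from the pituitary through the D2 receptor. Histamine neurons lie only in the tuberomammillary nucleus, where histidine decarboxylase (Hdc) makes histamine and Slc18a2 loads it. Serotonin reaches the hypothalamus in axons whose cell bodies lie in the raphe nuclei of the brainstem.

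Libraries held 18226924 to 21823961 counts. All 13 markers of hypothalamic identity on the list used here were detected in every library. Their summed levels were 1059 to 1401 CPM (counts scaled to a common library size by TMM), of which Avp made up 385 to 726 CPM. LP replicate 3 and HA replicate 3 stood apart in 10 markers of meningeal fibroblasts, with sums of 521 and 1070 CPM against 75.0 to 152 CPM in the other 7 libraries. For 11 markers of striatal medium spiny neurons, LP replicates 1 and 2 stood apart in the sum. It was 899 and 1046 CPM there against 684 to 742 CPM in the rest. LP replicate 3 was the highest of the 9 libraries for 7 of the 9 amine genes, and the other two, Drd2 and Htr2c, were highest in LP replicate 2.

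Levels were compared between genes by the deposited FPKM, which divides counts by gene length. The mean over the 9 libraries ran from 18.0 ± 0.65 FPKM (SD, n = 9) for Maoa, through Slc18a2 (15.1 ± 2.96 FPKM), Maob (14.5 ± 1.19 FPKM), Ddc (12.9 ± 1.07 FPKM), Th (12.1 ± 2.40 FPKM), Htr2c (10.3 ± 1.66 FPKM), Hdc (9.28 ± 1.60 FPKM) and Drd2 (6.85 ± 1.46 FPKM), down to 3.98 ± 3.47 FPKM for Slc6a3. Neighbours in that order often crossed. Slc18a2 lay above Maob, Ddc above Th, and Htr2c above Hdc in only 5 of 9 libraries each, so the order within these pairs is not separated by their spread. Maoa lay above Slc18a2, Maob above Ddc, Hdc above Drd2, and Drd2 above Slc6a3 in 8 of 9 libraries each, and Th above Htr2c in 7 of 9.

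**Figure D1:**
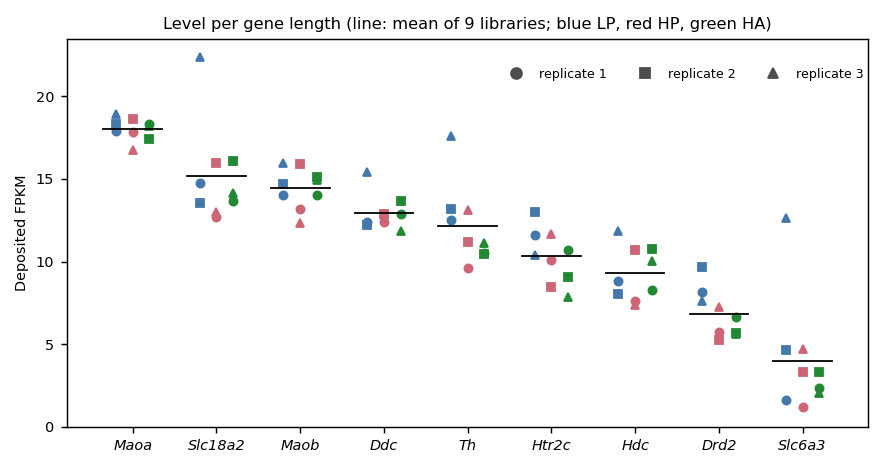
Deposited FPKM (y axis, linear) of the 9 genes (x axis) in each of 9 libraries; colours are the groups (LP blue, HP red, HA green), symbols the replicates and lines the means. Maoa is highest with a mean of 18.0 FPKM, and Slc6a3 is lowest at 3.98 FPKM but has the widest spread, with LP replicate 3 at 12.6 FPKM.

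In each comparison the question was whether maternal diet (HP against LP), 4-PBA on the maternal HFHS background (HA against HP), or both together (HA against LP) went with a different level. No amine gene passed the test in any of the 3 comparisons (edgeR quasi-likelihood test, Benjamini-Hochberg adjusted p under 0.05). For HP against LP, 0 of 9 were called against a background of 0.0114% of all tested genes (2 of 17546), and for HA against HP 0 of 9 against the same 0.0114%. For HA against LP, 0 of 9 were called and the background was 0% (0 of 17546). The edgeR adjusted p of the 9 genes ran from 0.683 to 0.939 between HP and LP, from 0.872 to 0.992 between HA and HP and from 0.645 to 0.992 between HA and LP. DESeq2 and limma-voom also called 0 of the 9 in each comparison. An unadjusted p under 0.05 was reached by 2 of 9 genes for HP against LP (6.12% of all genes), by 0 for HA against HP (5.42%) and by 3 for HA against LP (6.51%, 1142 genes). In their own fits of all genes for that comparison, DESeq2 called 27 genes and limma-voom 0.

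The estimates for HP against LP were below 0 for all 9 genes, with a median log2 difference of -0.21 beside -0.0024 over all genes, of which 50.9% had a lower estimate. For HA against LP 8 of 9 were below 0, with a median of -0.21 beside 0.0057 over all genes, of which 48.1% had a lower estimate. These 2 comparisons share the LP libraries, LP replicate 3 included. For HA against HP, which does not use LP, 4 of 9 were below 0 and the median was 0.0080 beside 0.0027. In RNA from whole tissue, fewer cells of a type and less RNA per cell cannot be told apart.

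**Figure D2:**
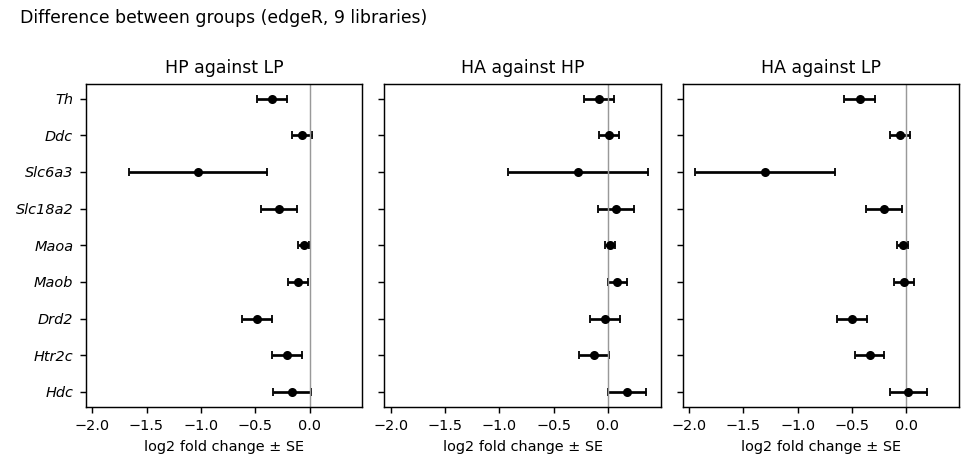
Log2 fold change with its standard error (x axis) of each gene (y axis) in the 3 comparisons, from edgeR on the counts of 9 libraries. All 9 points lie below 0 for HP against LP and 8 of 9 for HA against LP, the lowest being Slc6a3 at -1.02 and -1.30, whereas the points for HA against HP lie on both sides of 0.

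Th encodes tyrosine hydroxylase, the rate-limiting enzyme of dopamine synthesis (ENSMUSG00000000214, chr7:142892752-142931128, minus strand, GRCm38). It stood at 29.7, 31.3 and 41.7 CPM in LP replicates 1 to 3, at 22.8, 26.5 and 31.2 CPM in HP, and at 25.0, 24.7 and 26.4 CPM in HA. The 3 HA libraries lay within a narrow band below every LP library, whereas HP replicate 3 reached into the LP range. The means were 34.2 ± 6.55 CPM in LP, 26.8 ± 4.18 CPM in HP and 25.4 ± 0.93 CPM in HA (SD, n = 3 each). The edgeR log2 difference was -0.35 ± 0.14 (SE) for HP against LP (adjusted p = 0.807), -0.43 ± 0.14 for HA against LP (adjusted p = 0.702) and -0.083 ± 0.14 for HA against HP (adjusted p = 0.927). Libraries that do not overlap, lower in HA than in LP, were found for 2 of the 9 genes, Th and Drd2, against 5.51% of all tested genes. Without LP replicate 3, the Th difference was -0.18 for HP and -0.26 for HA, each against LP.

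Ddc encodes the decarboxylase that makes both dopamine and serotonin from their precursors (ENSMUSG00000020182, chr11:11814101-11898144, minus strand). Its levels were 55.4, 54.6 and 69.0 CPM in LP, 55.5, 57.7 and 57.4 in HP and 57.6, 61.0 and 53.1 in HA. LP replicate 3 was again the highest, and the other 8 libraries lay between 53.1 and 61.0 CPM with the groups overlapping. The log2 difference was -0.068 ± 0.089 (SE) for HP against LP, and without LP replicate 3 it was 0.049. The ratio of Ddc to Th, on the FPKM scale, was 0.88 to 0.99 in LP, 0.98 to 1.29 in HP and 1.07 to 1.31 in HA. Ddc also serves serotonin neurons, whose defining genes were near the limit of detection: Tph2 reached at most 0.61 CPM (11 counts), and Slc6a4 and Fev at most 0.31 CPM each. Dbh and Pnmt, which turn dopamine into noradrenaline and adrenaline, stayed at or under 0.27 CPM. For scale, 3 counts in a library correspond to 0.138 to 0.167 CPM.

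Slc18a2 encodes the vesicular transporter that every monoamine and histamine neuron uses (ENSMUSG00000025094, chr19:59260878-59296012, plus strand). It measured 56.3, 51.8 and 85.3 CPM in LP, 48.5, 60.9 and 49.7 in HP and 52.1, 61.3 and 54.2 in HA. LP replicate 3 lay far above the other 8 libraries, which ranged from 48.5 to 61.3 CPM and overlapped between groups. The log2 difference was -0.28 ± 0.17 (SE) for HP against LP and -0.21 ± 0.17 for HA against LP (edgeR adjusted p = 0.872 and 0.849). Without LP replicate 3 these became -0.028 and 0.050, so the second changed sign.

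Slc6a3 encodes the dopamine transporter, which returns dopamine to the neuron that released it and is known to be abundant in midbrain dopamine neurons (ENSMUSG00000021609, chr13:73536747-73578672, plus strand). Its levels were 5.65, 16.1 and 43.8 CPM in LP, 4.23, 11.6 and 16.3 in HP and 8.06, 11.4 and 7.03 in HA. The LP libraries alone covered nearly the whole range of this gene, and all 3 groups overlapped. Over the 9 libraries the highest held 10.3 times the lowest, against 1.13 to 1.85 times for the other 8 genes. The SD of log2 CPM within groups was 1.04, larger than for 98.9% of 15574 genes with a mean of at least 1 CPM. For HP against LP the log2 difference was -1.02 ± 0.64 (SE, edgeR adjusted p = 0.877), and for HA against LP it was -1.30 ± 0.64 (adjusted p = 0.791). Without LP replicate 3 they were -0.021 and -0.29. With LP replicates 1 and 2 left out, and a lone LP library assumed to vary like the other groups, they were -2.03 and -2.31.

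**Figure D3:**
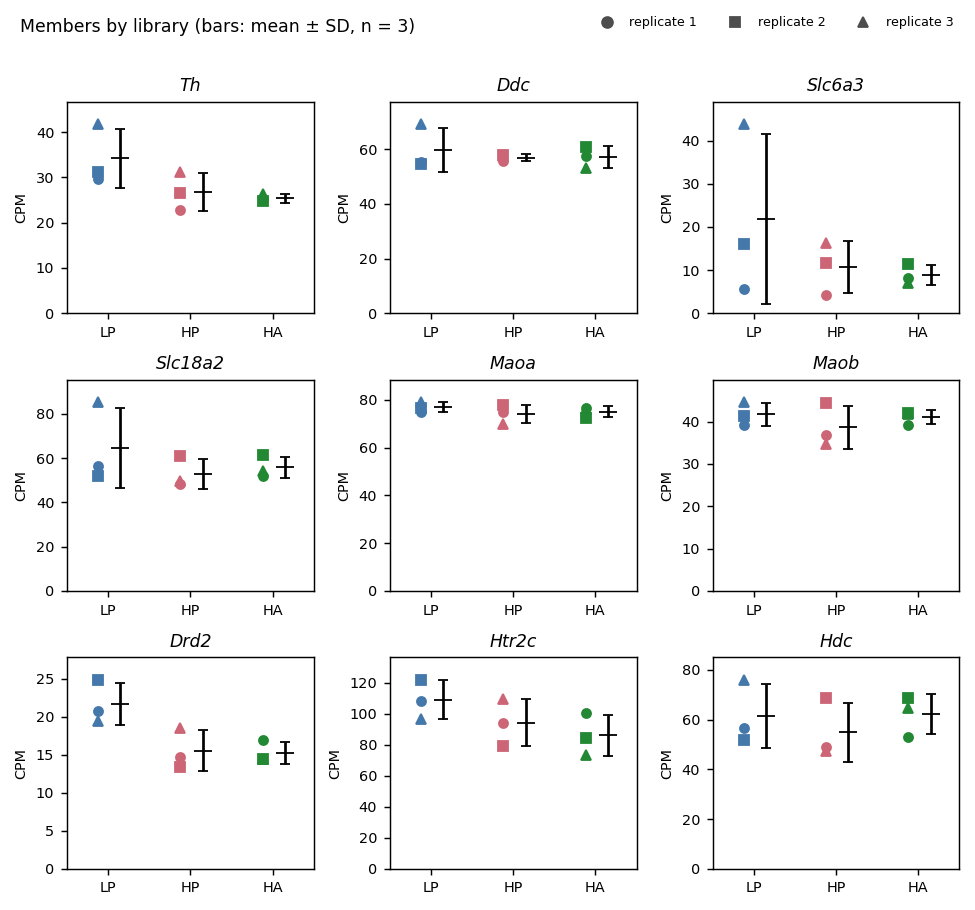
CPM (y axes, linear from 0) of each gene in the 3 libraries of LP, HP and HA (x axes), with the group mean and SD (n = 3). LP replicate 3, the blue triangle, is the highest point for 7 genes, and in the Drd2 panel all LP points lie above all HP and HA points.

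Slc6a3 and Th did not keep a fixed ratio. On the FPKM scale Slc6a3 per Th was 0.13, 0.35 and 0.72 in LP, 0.13, 0.30 and 0.36 in HP, and 0.22, 0.32 and 0.18 in HA. The ratio started from the same low value in LP and HP, spread widest in LP, and was highest in LP replicate 3. Of 6 markers of midbrain dopamine neurons, summed levels were 26.8 to 35.0 CPM in LP, 21.0 to 28.3 CPM in HP and 18.4 to 28.7 CPM in HA, the highest again in LP replicate 3. Most of the sum was Ntsr1, a neurotensin receptor, at 19.4, 19.6 and 21.5 CPM in LP, 15.9, 12.8 and 17.8 in HP and 18.4, 14.8 and 13.5 in HA. Pitx3, a transcription factor of those neurons, was at 0.81 CPM in LP replicate 3, at 0.47 CPM in LP replicate 2, at no more than 0.27 CPM elsewhere, and at 0 in HA replicate 3. En1, another such factor, was at 0.34, 1.04 and 2.20 CPM in LP, at most 0.47 CPM in HP and at most 0.74 CPM in HA. En2, its close relative, differed from that pattern, at 1.61, 0.90 and 1.18 CPM in LP, 2.23, 1.92 and 1.88 in HP and 2.03, 1.28 and 1.33 in HA, the highest in HP replicate 1, where Slc6a3 was lowest. Foxa2 was at 0 in LP replicate 1, HP replicate 1 and HA replicate 3, and was highest in HA replicate 1 at 0.87 CPM. Lmx1b was at 5.45, 7.82 and 8.71 CPM in LP, 4.17, 5.96 and 7.84 in HP and 6.49, 5.88 and 3.57 in HA. Within LP and within HP, the libraries ranked in Lmx1b as they did in Slc6a3, and within HA they did not. The 6 markers thus did not share 1 pattern over the libraries. The part of these cells in the Slc6a3 and Th values was not tested.

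The proximal promoters of Th, Ddc, Slc18a2 and Slc6a3, the genes of dopamine synthesis and transport, are shown. They were taken from RefSeq (GRCm38.p6), which gave a promoter for 8 of the 9 genes, as 250 bases before and 50 after a transcription start, 5′ to 3′ on the gene's strand. Each was searched on both strands for the cyclic AMP response element (CRE, TGACGTCA) and for the site of the Nr4a family of orphan receptors (NBRE, AAAGGTCA, which reads TGACCTTT on the other strand). Capitals mark a match, and no matches overlapped.
Th (chr7:142899946-142900245, minus strand): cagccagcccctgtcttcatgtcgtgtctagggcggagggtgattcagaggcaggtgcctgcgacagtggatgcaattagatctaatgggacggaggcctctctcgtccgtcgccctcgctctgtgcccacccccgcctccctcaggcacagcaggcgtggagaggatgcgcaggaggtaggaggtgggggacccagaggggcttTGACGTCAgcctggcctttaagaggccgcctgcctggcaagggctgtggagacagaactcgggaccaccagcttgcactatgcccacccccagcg
Slc18a2 (chr19:59260628-59260927, plus strand): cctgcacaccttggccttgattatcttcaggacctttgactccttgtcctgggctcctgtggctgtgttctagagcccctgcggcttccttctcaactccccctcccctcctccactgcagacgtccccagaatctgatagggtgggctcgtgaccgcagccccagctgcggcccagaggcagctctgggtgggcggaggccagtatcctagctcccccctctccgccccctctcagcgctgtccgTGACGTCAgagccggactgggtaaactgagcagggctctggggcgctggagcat
Ddc, upstream start (chr11:11898095-11898394, minus strand): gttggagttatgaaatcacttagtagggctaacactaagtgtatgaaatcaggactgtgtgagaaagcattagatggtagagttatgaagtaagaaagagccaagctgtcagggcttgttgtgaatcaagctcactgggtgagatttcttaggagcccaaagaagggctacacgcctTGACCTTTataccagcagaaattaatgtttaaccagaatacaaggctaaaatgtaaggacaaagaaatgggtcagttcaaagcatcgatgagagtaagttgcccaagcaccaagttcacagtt
Slc6a3 (chr13:73536497-73536796, plus strand): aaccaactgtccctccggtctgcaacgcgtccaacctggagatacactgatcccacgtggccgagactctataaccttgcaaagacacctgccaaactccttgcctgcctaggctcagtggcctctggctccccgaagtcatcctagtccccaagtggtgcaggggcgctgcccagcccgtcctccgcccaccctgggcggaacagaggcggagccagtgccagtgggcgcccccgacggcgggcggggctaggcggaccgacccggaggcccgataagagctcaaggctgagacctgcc
A CRE stood in the Th window, beginning 45 bases before the start, and in the Slc18a2 window, beginning 4 bases before it. An NBRE stood in the window of the upstream Ddc start, with its match beginning 73 bases before that start. The window of the downstream Ddc start (chr11:11890359-11890658, minus strand) held neither. The Slc6a3 window also held neither, and neither did those of Maoa, Drd2, Htr2c and Hdc. Of 32851 RefSeq windows of the same length, 588 (1.79%) held a CRE and 495 (1.51%) an NBRE. A match describes letters and shows no binding.

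Hdc encodes the enzyme that makes histamine (ENSMUSG00000027360, chr2:126593667-126619299, minus strand). It stood at 56.7, 51.7 and 75.9 CPM in LP, 48.9, 68.6 and 47.2 in HP and 53.1, 68.7 and 64.6 in HA. Each group held both a low and a high library, and the groups overlapped throughout. The log2 difference was -0.16 ± 0.17 (SE) between HP and LP, 0.18 ± 0.17 between HA and HP and 0.017 ± 0.17 between HA and LP (edgeR adjusted p = 0.92, 0.872 and 0.992). Of 13589 candidate protein-coding genes, the one whose log2 CPM followed Hdc most closely over the 9 libraries was Prph (Pearson r = 0.96, a description over libraries that also share depth and dissection), followed by Zim1 (r = 0.96).

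Prph, the intermediate filament peripherin and one of the tuberomammillary markers listed here, was at 27.4, 21.2 and 36.1 CPM in LP, 20.7, 31.8 and 20.7 in HP and 24.9, 35.2 and 27.8 in HA. The highest library of each group was the same for Hdc and Prph: LP replicate 3, HP replicate 2 and HA replicate 2. Wif1, another listed marker, was at 11.8, 8.50 and 9.41 CPM in those 3 libraries and at 4.76 to 7.94 CPM in the other 6. The remaining markers of the list differed from this: Hcrtr2, an orexin receptor, was at 17.1, 16.5 and 15.9 CPM in LP, 12.6, 18.3 and 14.8 in HP and 13.9, 17.4 and 15.3 in HA, lowest of its group in LP replicate 3. Ada, adenosine deaminase, was at 1.56, 1.71 and 2.26 CPM in LP, 1.39, 1.24 and 0.58 in HP and 1.15, 1.55 and 1.33 in HA, highest of its group in HP replicate 1. The sum of the 4 listed markers was 46.1 to 66.1 CPM in LP, 40.7 to 59.9 CPM in HP and 46.0 to 63.6 CPM in HA, with none at 0. How far the number of tuberomammillary cells in each library enters the Hdc values was not tested. Mast cells, which also contain Hdc, were near absent: their 6 markers summed to 0 to 0.64 CPM per library.

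**Figure D4:**
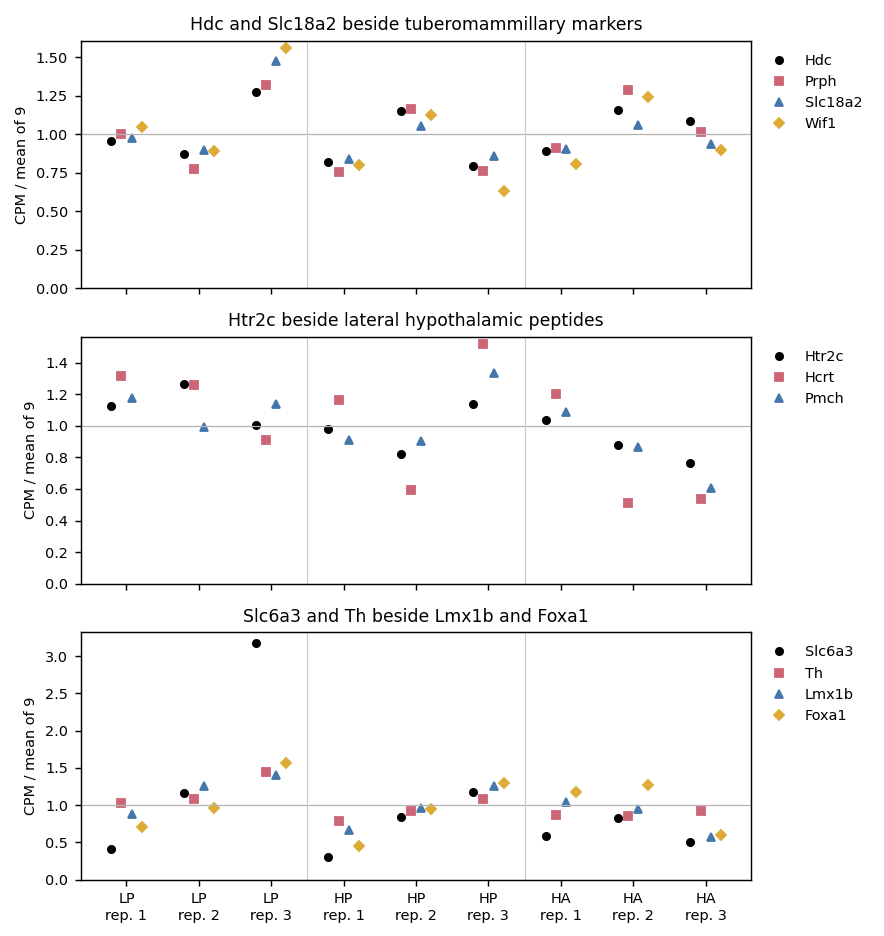
CPM of each gene divided by its mean over 9 libraries (y axes; the line at 1 is that mean) in each library (x axis). Hdc, Prph and Wif1 are high in LP replicate 3, HP replicate 2 and HA replicate 2. Htr2c is lowest in HA replicate 3, as is Pmch. Slc6a3 reaches 3.18 times its mean in LP replicate 3, where Lmx1b and Foxa1 are also highest. Foxa1 is not among the 6 listed midbrain markers. Of those 6, En2 and Foxa2 are not plotted, and they are highest in HP replicate 1 and HA replicate 1.

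Maoa and Maob encode the monoamine oxidases, mitochondrial enzymes that break down amines, with MAO-A preferring serotonin and noradrenaline and MAO-B found mainly in astrocytes and in serotonin and histamine neurons. They are neighbours on the X chromosome (ENSMUSG00000025037, chrX:16619698-16687818, plus strand, and ENSMUSG00000040147, chrX:16709282-16817366, minus strand), with 21463 bases between them. Maoa was at 74.9, 76.7 and 79.0 CPM in LP, 74.7, 77.7 and 70.1 in HP and 76.4, 72.6 and 76.3 in HA. It varied least of the 9 genes, with a within-group SD of 0.054 on the log2 scale, smaller than the median of 0.12 over 15574 genes.

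Maob was at 39.3, 41.2 and 44.6 CPM in LP, 36.9, 44.4 and 34.6 in HP and 39.2, 42.1 and 41.9 in HA. Its groups overlapped, and so did those of Maoa. The log2 difference for HP against LP was -0.052 ± 0.050 (SE) for Maoa and -0.11 ± 0.091 for Maob, and for HA against HP it was 0.018 ± 0.050 and 0.087 ± 0.091. Per length, Maoa exceeded Maob in every library, by a ratio of 1.15 to 1.35. The sum of 7 astrocyte markers was 3625 to 4241 CPM in LP, 3548 to 4200 CPM in HP and 3653 to 3964 CPM in HA, so these ranges also overlapped.

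Drd2 encodes the D2 dopamine receptor, which lowers cyclic AMP and serves both as an autoreceptor on dopamine neurons and as a receptor on their targets (ENSMUSG00000032259, chr9:49340627-49408177, plus strand). It was at 20.8, 24.8 and 19.4 CPM in LP, 14.7, 13.4 and 18.5 in HP and 16.9, 14.5 and 14.4 in HA. Every LP library lay above every HP and HA library, with the smallest gap between LP replicate 3 and HP replicate 3. The means were 21.7 ± 2.81 CPM in LP, 15.5 ± 2.65 CPM in HP and 15.3 ± 1.45 CPM in HA (SD, n = 3 each), that is, 0.717 times LP in HP and 0.705 times in HA. The edgeR log2 difference was -0.48 ± 0.14 (SE) for HP against LP (unadjusted p = 0.00596, adjusted p = 0.683) and -0.50 ± 0.14 for HA against LP (unadjusted p = 0.0044, adjusted p = 0.645), so neither passed. Drd2 was the 1 gene of 9 whose libraries did not overlap between HP and LP, lower in HP, as for 5.83% of all tested genes, and 1 gene of 9 says nothing of the other 8. Between HA and HP the difference was -0.025 ± 0.14 (adjusted p = 0.983), and no amine gene had groups that did not overlap there, against 11.8% of all genes in either direction.

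Drd2 is also abundant in the striatum, and markers of striatal neurons were not level across the groups. Adora2a, the adenosine receptor of the striatal neurons that carry Drd2, was at 15.7, 23.6 and 3.76 CPM in LP, 2.39 to 2.95 CPM in HP and 3.73 to 4.21 CPM in HA. Ppp1r1b (DARPP-32) was at 52.4, 82.0 and 13.4 CPM in LP, 8.35 to 11.5 CPM in HP and 10.3 to 16.1 CPM in HA. The listed markers did not all follow this pattern. Gpr6 was at 8.72, 8.10 and 6.34 CPM in LP, 8.07, 8.71 and 5.54 in HP and 6.26, 7.54 and 7.62 in HA. Tac1 was at 105.1, 129.2 and 111.9 CPM in LP, 92.9, 117.5 and 97.7 in HP and 96.0, 117.4 and 99.1 in HA. All 11 listed markers were detected in every library, summing to 742 to 1046 CPM in LP, 686 to 704 CPM in HP and 684 to 716 CPM in HA. LP replicates 1 and 2 held the highest sums. With both left out, the log2 difference of Drd2 was -0.32 for HP and -0.35 for HA against LP, resting on LP replicate 3 alone. With LP replicate 3 left out instead, it was -0.55 and -0.57. The part of striatal tissue in the Drd2 values was not tested beyond these fits. Hrh2, a histamine receptor, followed Drd2 most closely over the 9 libraries (Pearson r = 0.94), then Stum (r = 0.94).

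The D2 receptor is also abundant on the prolactin cells of the pituitary. The 11 pituitary markers, of which 7 to 10 were detected per library, summed to 36.0 to 57.5 CPM in LP, 32.9 to 51.1 CPM in HP and 49.4 to 71.0 CPM in HA. LP replicate 3, at 57.5 CPM, and HA replicate 3, at 71.0 CPM, held the highest sums, and the prolactin gene Prl was at 0 in the other libraries except HA replicate 2. The part of pituitary tissue in the Drd2 values was not tested.

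Htr2c encodes the serotonin 2C receptor, which proopiomelanocortin neurons use in the control of feeding and which the choroid plexus also makes in quantity (ENSMUSG00000041380, chrX:146962513-147197277, plus strand). It was at 108.5, 121.9 and 96.9 CPM in LP, 94.3, 79.3 and 109.5 in HP and 100.3, 84.6 and 73.7 in HA. The groups overlapped, with the 3 lowest values in HA replicate 3, HP replicate 2 and HA replicate 2. Group means were 109.1 ± 12.5 CPM in LP, 94.4 ± 15.1 CPM in HP and 86.2 ± 13.4 CPM in HA (SD, n = 3 each). The log2 difference was -0.21 ± 0.14 (SE) for HP against LP and -0.34 ± 0.14 for HA against LP (edgeR adjusted p = 0.883 and 0.756), and -0.13 ± 0.14 for HA against HP (adjusted p = 0.882). The difference between HP and LP ranged from -0.33 without HP replicate 3 to -0.12 without LP replicate 2 and -0.099 without HP replicate 2, and that between HA and LP from -0.47 without HA replicate 1 to -0.24 without HA replicate 3.

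The 10 markers of the choroid plexus summed to 36.3 to 50.4 CPM in LP, 31.9 to 36.6 CPM in HP and 30.6 to 43.9 CPM in HA, and its defining gene Ttr did not exceed 2.58 CPM in any library. Peptide genes of the lateral hypothalamus also differed between libraries. Hcrt, the orexin precursor, was at 132.2, 127.0 and 91.8 CPM in LP, 117.1, 59.8 and 152.6 in HP and 120.8, 51.4 and 54.3 in HA, and its 3 lowest libraries were the same 3 as for Htr2c. Pmch, the precursor of melanin-concentrating hormone, was lowest in HA replicate 3 at 76.3 CPM and highest in HP replicate 3 at 168.6 CPM. For HA against LP, the log2 difference was -0.63 for Hcrt and -0.37 for Pmch. Other hypothalamic genes went the other way. For Pomc, the proopiomelanocortin gene, it was 0.66 ± 0.15 (SE, edgeR unadjusted p = 0.00163, adjusted p = 0.645). The estimates of Avp, Agrp, Nr5a1, Trh and Nkx2-1 for HA against LP were also above 0. The share of the lateral hypothalamus in each dissection was not tested. Epha5, a guidance receptor, followed Htr2c most closely (Pearson r = 0.98 over 9 libraries), then Fam19a2 (r = 0.96).

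**Figure D5:**
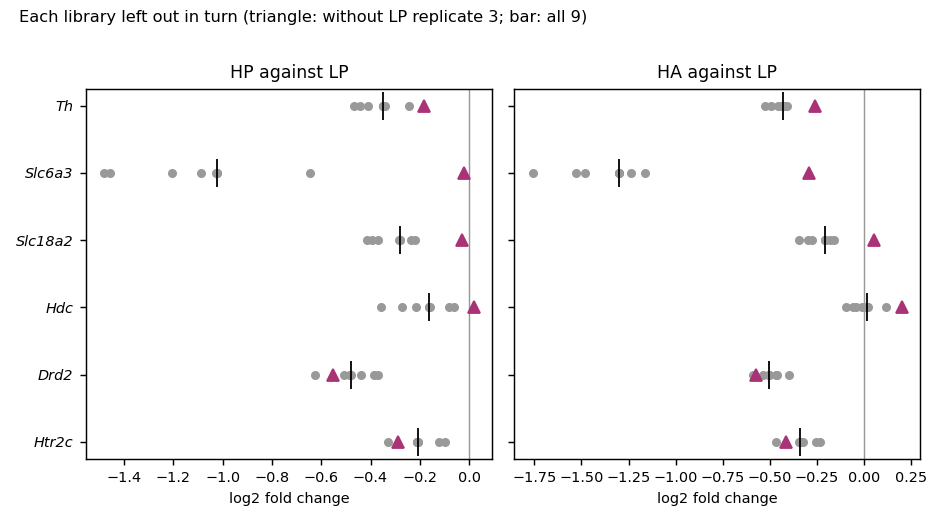
Log2 fold change against LP (x axes) of 6 genes (y axis) when each of the 9 libraries is left out in turn (points), without LP replicate 3 (triangle) and with all 9 (bar). Without LP replicate 3, Th, Slc6a3, Slc18a2 and Hdc move to higher values, to -0.021 for Slc6a3 in HP, whereas Drd2 and Htr2c move to lower ones.

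Genes that followed the remaining members most closely over the 9 libraries, given as descriptions, were Lyrm7 and Glul for Th (Pearson r = 0.92 for each), Bdnf and Lpo for Ddc (0.94 and 0.93), and Zfand1 and Cln6 for Slc18a2 (0.95 and 0.93). For Slc6a3 they were Dnm2 and Adssl1 (0.93 for each), for Maoa G2e3 and Tmem199 (0.91 and 0.89), and for Maob Plcb4 and Myo5b (0.96 and 0.95). LP replicate 3 was the highest library for all of these except G2e3 and Plcb4, which were highest in HP replicate 2.

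A further 69 genes of the same pathways were read from the same fit, of which 52 were tested and 17 were too low. None was called in any comparison (0 of 52 each with edgeR, and 0 with DESeq2 and with limma-voom). An unadjusted p under 0.05 (edgeR) was reached by 4 of 52 genes between HP and LP, 3 between HA and HP and 4 between HA and LP. Over all tested genes the shares were 6.12%, 5.42% and 6.51%. For HP against LP 32 of 52 had a lower estimate (median log2 difference -0.073), beside 50.9% of all genes. For HA against HP it was 27 (median -0.013), beside 49.1%. In HA against LP 35 of 52 were lower (median -0.097), beside 48.1%.

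Among enzymes that supply the tetrahydrobiopterin cofactor of Th, 5 of 11 synthesis genes on the list were tested. Gch1, the rate-limiting step of that supply, was at 6.88 ± 0.20 CPM in LP, 6.79 ± 0.66 CPM in HP and 7.65 ± 0.84 CPM in HA (SD, n = 3). Pcbd1, which recycles the cofactor, was at 33.3 ± 0.32 CPM in LP, 34.2 ± 0.64 CPM in HP and 35.7 ± 1.22 CPM in HA. The median log2 difference of the 5 was 0.034 for HP against LP, above 0 where that of the dopamine receptors was below it.

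Of 4 breakdown enzymes tested, all 4 had a lower estimate for HP against LP and 3 a higher one for HA against HP. Hnmt, which inactivates histamine in the brain, was at 19.3 ± 1.46 CPM in LP, 18.2 ± 2.02 CPM in HP and 17.9 ± 0.54 CPM in HA. Aldh1a1, an aldehyde dehydrogenase of dopamine neurons that is also made outside neurons, was at 44.7 ± 27.4 CPM in LP, 31.0 ± 9.66 CPM in HP and 48.5 ± 37.7 CPM in HA. Its highest libraries were HA replicate 3 at 92.0 CPM and LP replicate 3 at 76.2 CPM, those rich in meningeal markers, and the other HA libraries were at 26.0 and 27.6 CPM. Aldh2 was at 81.3 ± 8.20, 78.7 ± 0.54 and 88.3 ± 11.3 CPM, and was highest in the same 2 libraries, at 101.2 CPM in HA replicate 3 and 89.5 CPM in LP replicate 3. The low-affinity amine transporter Slc22a3 was at 5.11 ± 0.055 CPM in LP, 4.51 ± 0.45 CPM in HP and 6.08 ± 1.55 CPM in HA. Its log2 difference was 0.43 ± 0.19 (SE) for HA against HP (edgeR adjusted p = 0.84), and HA replicate 3 was its highest library at 7.72 CPM. The part of meningeal cells in these values was not tested.

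Of the other dopamine receptors, 3 of 4 were tested, and all 3 had a lower estimate in HP and in HA than in LP. Drd1, the D1 receptor, was at 13.0, 18.0 and 4.35 CPM in LP, 4.62, 5.91 and 5.70 in HP and 5.75, 7.22 and 5.91 in HA. LP replicates 1 and 2, the libraries with the highest sums of striatal markers, were high. LP replicate 3 was the lowest of all 9, which was not so for Drd2. The log2 difference of Drd1 was -1.12 ± 0.39 (SE) for HP against LP (edgeR adjusted p = 0.779).

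The histamine receptors tested numbered 3 of 4. Hrh2 was at 8.14 ± 0.54 CPM in LP, 6.43 ± 0.82 CPM in HP and 6.36 ± 0.99 CPM in HA, and its log2 difference was -0.34 ± 0.15 (SE) for HP against LP and -0.35 ± 0.15 for HA against LP (edgeR adjusted p = 0.81 and 0.756). Hrh3, the autoreceptor of histamine neurons, was at 53.3 ± 6.63 CPM in LP, 50.1 ± 2.0 CPM in HP and 48.6 ± 2.23 CPM in HA. Hrh1 was at 26.0 ± 2.81, 28.3 ± 2.24 and 24.8 ± 0.28 CPM.

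Of 12 serotonin receptors tested, 6 had a lower estimate in HP than in LP, 8 in HA than in HP and 9 in HA than in LP. Htr5a was at 14.9 ± 2.21 CPM in LP, 16.7 ± 0.997 CPM in HP and 13.5 ± 0.18 CPM in HA, a log2 difference of -0.31 ± 0.11 (SE) for HA against HP (edgeR adjusted p = 0.84). Htr1a was at 23.6 ± 2.55, 24.2 ± 2.67 and 20.9 ± 2.39 CPM, and Htr7 at 39.9 ± 2.70, 38.5 ± 1.40 and 36.9 ± 1.29 CPM. Among 8 adrenergic receptors tested, Adra2c was at 17.7 ± 3.38 CPM in LP, 14.0 ± 0.69 CPM in HP and 14.3 ± 2.28 CPM in HA. Its edgeR adjusted p was 0.816 for HP against LP. Of these 8, 5 had a lower estimate in HP than in LP.

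Of 13 tested transcription factors of amine neurons, 7 had a lower estimate in HP and 9 in HA than in LP. Gata2, a factor of serotonin and other neurons, was at 5.50 ± 1.34 CPM in LP, 5.59 ± 0.79 CPM in HP and 8.10 ± 1.90 CPM in HA. Its log2 difference was 0.53 ± 0.22 (SE) from HP to HA and 0.56 ± 0.22 from LP to HA (edgeR adjusted p = 0.84 and 0.756). En1 and En2, a pair of midbrain factors, had estimates of opposite sign for HP against LP, -1.87 ± 0.77 and 0.70 ± 0.28 (edgeR adjusted p = 0.807 for each). Both were low, at no more than 1.23 CPM on average in LP.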

How the data were processed

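Hypothalamic RNA of 9 libraries was sequenced from 3 µg of total RNA per sample per the labels' protocols. The NEBNext Ultra kit was used, and no strand setting is stated. Per the submitters' processing notes, reads went through HISAT2 2.0.5 and featureCounts 1.5.0-p3 on build mm9, and DESeq2 1.16.1 is also named. The deposited counts are raw whole numbers per gene, and the deposited FPKM values divide them by gene length and library size (deposited over recomputed FPKM 0.981 to 1.01). Of 54409 gene identifiers shared with GENCODE M21 of GRCm38, 53499 (98.3%) had the deposited coordinates, including 8 of the 9 members, so coordinates are read as GRCm38.

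Groups follow the labels. Pairs of libraries of 1 group differed by a chi-square per degree of freedom of 4.73 to 25.8, so none was treated as a duplicate. Counts of all 9 libraries were fitted with the quasi-likelihood test of edgeR 4.0.16 (R 4.3.3), with group as the only term, filterByExpr, TMM scaling, two-sided p-values adjusted by Benjamini-Hochberg over 17546 genes and a threshold of 0.05. The biological coefficient of variation was 14.1%. SE is the size of the log2 difference over the square root of F. An exact permutation test of 3 against 3 cannot go below p = 0.1 and was not used. Log2 CPM has a prior count of 2. Alternatives were RLE or no scaling, no filter, DESeq2 1.42.0, limma-voom 3.58.1, 6 libraries only, a replicate block, the title code and left-out libraries. The fit was checked on simulated counts.

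Named genes were all members, the 2 genes of smallest p per pathway list and comparison, the 2 genes most like each member in log2 CPM (named protein-coding genes of mean CPM of at least 1), and markers whose values touch a member. Some genes that this rule names are not reported here. Members and lists were chosen with earlier results of these data known. Ddc and Slc18a2 overlap antisense models with a mean of at most 1 count per library. Htr2c overlaps 8 other models, all on its own strand, and their effect on its counts was not tested.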

Additional observations from a re-analysis of the deposited data

How the results depend on the processing

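No amine gene was called under any of the 18 alternatives for HP against LP and HA against LP or the 19 for HA against HP, where the lowest adjusted p was 0.207, 0.161 and 0.66. The number of all genes called moved more. For HP against LP it was 2 in the fit as reported, 1 with library totals, 53 with no filter, 32 with DESeq2, 4 with only 6 libraries and 4 with the replicate block, 37 without LP replicate 3 and HA replicate 3, and 1 to 21 with single libraries left out, the most without LP replicate 3. For HA against HP it was 2, then 5 with no filter, 8 with DESeq2, 2 with the replicate block, 10 without LP replicate 3 and HA replicate 3, and 1 to 9 with single libraries left out. For HA against LP it was 0, then 41 with no filter, 27 with DESeq2, 1 with only 6 libraries, 0 with the replicate block, 23 without LP replicate 3 and HA replicate 3, and 0 to 14 with single libraries left out. The cause was not tested.

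The replicate block changed no call of an amine gene. The replicate numbers pair nothing stated in the labels: the deviations of same-numbered libraries correlated with r = 0.082, 0.0039 and 0.12 for HP and HA, 0.14, -0.028 and 0.16 for LP and HP, and 0.26, 0.14 and 0.49 for LP and HA, so that not every pair exceeded 0.1, and not every library correlated best with its own number.

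The sign of the log2 difference was the same under every alternative for 7 of 9 genes for HP against LP, 4 of 9 for HA against HP and 5 of 9 for HA against LP. The exceptions all crossed 0 as libraries were left out. With single libraries left out, the ranges were -0.13 to 0.049 for Ddc and -0.36 to 0.019 for Hdc between HP and LP, the upper ends without LP replicate 3. Between HA and HP they were -0.19 to 0.035 for Th, -0.036 to 0.062 for Ddc, -0.66 to 0.16 for Slc6a3, -0.024 to 0.057 for Maoa and -0.12 to 0.12 for Drd2. Between HA and LP they were -0.12 to 0.061 for Ddc, -0.34 to 0.050 for Slc18a2, -0.066 to 0.032 for Maob and -0.097 to 0.20 for Hdc, the upper ends again without LP replicate 3. Without LP replicate 3 and HA replicate 3 together, Ddc stood at 0.049 and Hdc at 0.019 between HP and LP, Drd2 at 0.022 between HA and HP, and Ddc at 0.11, Slc18a2 at 0.070 and Maob at 0.017 between HA and LP. Without LP replicates 1 and 2, Hdc stood at -0.29 between HA and LP. The cause was not tested. Group mean CPM scaled by library totals moved by less than the SD. Counts behind a value were lowest for Slc6a3, at 76 in HP replicate 1.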
